A study of Mus musculus with 6 samples.

Results

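The 4 Argonaute genes, Ago1, Ago2, Ago3 and Ago4, and the 3 GW182 genes, Tnrc6a, Tnrc6b and Tnrc6c, were followed by their symbols through poly(A)-selected RNA-seq of mouse embryonic stem cells. They are 7 of the 21978 entries of the deposited gene tables. All 7 were among the 16498 genes that passed the filter on low counts. The cells differed in DGCR8, the double-stranded RNA-binding partner of Drosha in the nuclear cleavage of primary microRNA (miRNA) transcripts. The E518K cells were labelled DGCR8 E518K/E518K and had been transfected with pSB ET iE-FlagDGCR8-E518K, a transposon vector for Flag-tagged DGCR8 carrying the E518K substitution, together with the transposase plasmid pCMV(CAT)-SB100X. The KO cells were labelled DGCR8 -/- and were non-transfected. The wt cells were labelled DGCR8 wt/wt and carried the unsubstituted vector, pSB ET iE-FlagDGCR8-wt, introduced with the same transposase plasmid. The promoter of the transposon insert and the time of integration are not given in the labels. The only group without a transgene was KO, so loss of DGCR8 and absence of the transfection cannot be told apart in a comparison with KO.

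All 6 cultures received 300 ng/mL doxycycline for 48 h. All were grown without feeder cells on gelatin with leukemia inhibitory factor and the inhibitors CHIR99021 at 3 µM and PD0325901 at 1 µM. Each group had 2 libraries, E518K clones 8 and 15, KO cultures 1 and 3, and wt clones 12 and 16. The study describes its clones as independent, while both KO libraries carry the clone number 261. The p-values below therefore measure the spread between these libraries, part of which may be technical. That spread was pooled over all groups, so each comparison also carries the spread of the group left out of it. By their labels both KO libraries come from clone 261, so no p-value can be taken to hold a difference between KO clones.

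Argonautes hold a miRNA as a guide and pair its seed, bases 2 to 8, with sites that lie mostly in 3′ untranslated regions (UTRs). AGO2 is the mammalian Argonaute that can itself cut a perfectly paired target. The GW182 proteins TNRC6A, TNRC6B and TNRC6C bind Argonautes through glycine-tryptophan repeats and recruit the deadenylase complexes that shorten the poly(A) tail, after which the cap is removed and the mRNA is degraded. In mouse embryonic stem cells, miRNAs of the miR-290 and miR-302 clusters, which share a seed, and of the miR-17 clusters are abundant, and let-7 miRNAs accumulate as the cells differentiate.

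The silencing machinery is itself encoded by mRNAs that can carry such sites, so the mature miRNAs are shown here with their seeds in capitals, grouped by shared seed. The sequences are from RefSeq with its GRCm38.p6 table. The first 4 belong to the miR-290 family, the next 2 to the miR-17 family, then 2 to let-7 and 2 to the miR-16 family.
miR-291a-3p: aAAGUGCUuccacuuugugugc
miR-294-3p: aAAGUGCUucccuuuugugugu
miR-295-3p: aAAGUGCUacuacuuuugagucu
miR-302b-3p: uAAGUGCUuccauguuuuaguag
miR-17-5p: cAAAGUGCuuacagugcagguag
miR-20a-5p: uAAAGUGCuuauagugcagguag
let-7a-5p: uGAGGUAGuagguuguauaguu
let-7g-5p: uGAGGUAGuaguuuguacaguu
miR-16-5p: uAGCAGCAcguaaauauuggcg
miR-15a-5p: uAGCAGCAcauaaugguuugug

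A match was counted where the longest annotated 3′ UTR of a gene (GENCODE M21, GRCm38) held the 7 letters that pair with the seed, read on the strand of the gene. These letters are AGCACTT for the miR-290 family, GCACTTT for miR-17, CTACCTC for let-7 and TGCTGCT for miR-16. No miR-290 match overlapped a miR-17 match. The miR-17 letters do hold GCACTT, which pairs with all but the last base of the miR-290 seed. Such shorter pairing was not counted as a miR-290 match. miR-17 matches were the most widespread, lying in 6 of the 7 UTRs, all but that of Ago4. miR-16 matches lay in 5, miR-290 matches in 3 (Ago3, Tnrc6b and Tnrc6c) and let-7 matches in 2 (Ago2 and Ago3). The background was the 14758 genes that passed the filter on low counts and had an annotated 3′ UTR of at least 20 bases. Of these, 13.8% held a miR-17 match, 23.6% a miR-16 match, 16.7% a miR-290 match and 10.2% a let-7 match. The 7 UTRs are long, at 2345 to 12742 bases against a median of 1120 over those genes. Among the 3411 of them with UTRs of at least 2345 bases, the shares were 32.1% for miR-17, 49.2% for miR-16, 39.2% for miR-290 and 21.7% for let-7. That bound is the shortest of the 7 UTRs, so lengths were not matched. Per kilobase, the 7 UTRs held 0.165 miR-17 matches against 0.101 over the UTRs of the 14758 genes, and 0.124 miR-290 matches against 0.128. For miR-16 the values were 0.268 against 0.208, and for let-7 0.0824 against 0.0731.

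The miR-17 matches below are those of the 4 genes with the largest log2 fold changes between KO and wt, given further on. For Ago3 only the first of 3 is shown. Ago2 and Tnrc6c, which had smaller fold changes, also held a miR-17 match each, not shown here. The other windows are the miR-290 matches of the GW182 genes and the 3 let-7 matches of Ago2. Each window is 28 bases on the strand of the gene, with the match in capitals.
Ago1, miR-17, chr4:126438520-126438547, minus strand: cattgacatttGCACTTTcagacgtgac
Tnrc6a, miR-17, chr7:123193608-123193635, plus strand: ggacgggccctGCACTTTgaacaggctt
Tnrc6b, miR-17, chr15:80940536-80940563, plus strand: acagaaactagGCACTTTggtggttcac
Ago3, miR-17, chr4:126343690-126343717, minus strand: cagggaactttGCACTTTgtaagtcatg
Tnrc6b, miR-290 match 1, chr15:80931317-80931344, plus strand: gggaacatgctAGCACTTgtgtgatatc
Tnrc6b, miR-290 match 2, chr15:80935707-80935734, plus strand: ccttttatcccAGCACTTgagaggcaga
Tnrc6c, miR-290, chr11:117762123-117762150, plus strand: gcggccggccgAGCACTTggacgtggtg
Ago2, let-7 match 1, chr15:73101715-73101742, minus strand: atgcataaaagCTACCTCtgacttctca
Ago2, let-7 match 2, chr15:73100031-73100058, minus strand: tggcctctgtcCTACCTCcaggcactgg
Ago2, let-7 match 3, chr15:73097973-73098000, minus strand: acaatgtggatCTACCTCagttaaacag

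**Figure D1:**
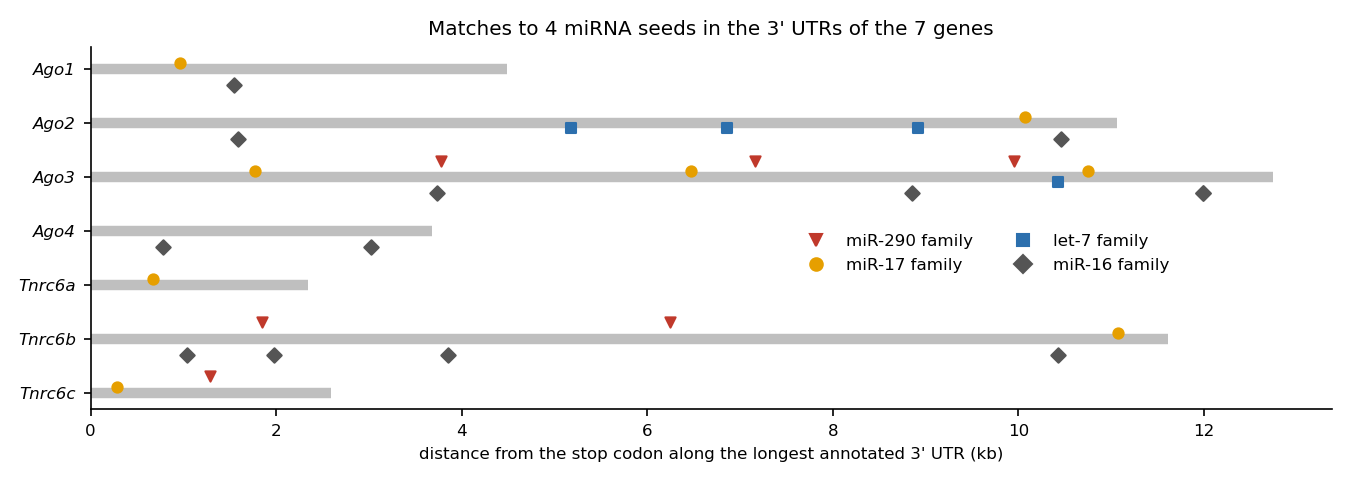
Positions of seed matches along the longest annotated 3′ UTR of each gene, in kilobases from the stop codon; grey bars are the UTRs and each symbol is 1 match to the miR-290, miR-17, let-7 or miR-16 family. Ago3 holds 3 miR-290, 3 miR-17, 1 let-7 and 4 miR-16 matches in 12742 bases, 2 of the miR-16 matches overlapping, while Tnrc6a holds 1 miR-17 match in 2345 bases.

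A match is a run of letters in the annotation and not a measured binding site, and no miRNA was measured in these libraries. The UTR of Ago1 (4491 bases) held 1 miR-17 and 1 miR-16 match, and that of Ago4 (3682 bases) held 2 miR-16 matches. The UTR of Ago2 (11064 bases) held 3 let-7, 2 miR-16 and 1 miR-17 match. That of Tnrc6b (11609 bases) held 2 miR-290, 1 miR-17 and 4 miR-16 matches, and that of Tnrc6c (2588 bases) 1 miR-290 and 1 miR-17 match.

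Values are given in CPM, counts scaled to a common library size, which compare 1 gene across libraries, and in deposited TPM, which set genes side by side per length. Fold changes are log2 values with standard errors (SE) from edgeR's quasi-likelihood test on the counts of all 6 libraries. Adjusted p-values are Benjamini-Hochberg values over the 16498 genes, and a gene was called at an adjusted p below 0.05. Deposited totals were 73642784 to 75121971 counts per library. Deposited TPM was per base of the whole genomic span of a gene, introns included, and whether reads in introns were counted was not tested. The use of strand in counting was not stated in any source used. The biological coefficient of variation between the libraries of a group, common to all genes, was 9.19% for E518K, 2.61% for KO and 20.5% for wt. Dgcr8, the targeted gene, had 820.6 and 420.2 CPM in E518K clones 8 and 15, 40.0 and 37.1 CPM in KO libraries 1 and 3, and 195.5 and 992.4 CPM in wt clones 12 and 16. KO differed from wt by -3.95 ± 0.73 on the log2 scale (edgeR adjusted p = 0.00316). Dgcr8 was low in both KO libraries and differed widely between the clones of the other groups, and reads from the transgene and the endogenous gene cannot be told apart. In CPM, wt clone 12 was below wt clone 16 in 6 of the 7 genes, and E518K clone 8 below E518K clone 15 in 4 of the 7. Whether these orders follow the Dgcr8 level was not tested.

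Most of the 7 genes were higher in KO than in wt cells. Of the 7, 5 were called higher, none lower, and 2 (Ago2 and Ago4) were not called, with 27.4% of all tested genes called higher and 57.2% called in either direction. The 5 were all 3 GW182 genes and 2 of the 4 Argonautes. The median log2 fold change was 0.73 over the 7 genes and -0.02 over all tested genes. In 6 of the 7, both KO libraries lay above both wt libraries in CPM, as did 40.1% of tested genes. The largest differences were in Tnrc6a, Tnrc6b and Ago1, whose changes exceeded those of 92.0%, 89.8% and 87.2% of tested genes.

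Among the GW182 genes, Tnrc6a, the first family member to be described (as the GW182 autoantigen of cytoplasmic bodies), had 105.2 and 115.0 CPM in E518K clones 8 and 15, 188.2 and 191.9 CPM in KO libraries 1 and 3, and 60.7 and 72.7 CPM in wt clones 12 and 16. The 3 groups did not overlap, with KO highest and wt lowest. KO was higher than wt by a log2 fold change of 1.51 ± 0.10 (SE, edgeR adjusted p = 5.29e-05), a ratio of mean CPM of 2.85. E518K was higher than wt by 0.72 ± 0.10 (edgeR adjusted p = 0.00387) and differed from KO by -0.79 ± 0.10 (edgeR adjusted p = 9.45e-04). The difference between E518K and wt lost its call without E518K clone 15 (adjusted p = 0.0524) and in limma on unfiltered log2(TPM + 1) (adjusted p = 0.0568). In TPM, Tnrc6a stood at 9.19 and 10.4 in E518K, 18.0 and 18.5 in KO, and 5.42 and 7.02 in wt.

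Tnrc6b, a GW182 protein that binds Argonautes and the CCR4-NOT deadenylase, had 55.2 and 55.9 CPM in E518K clones 8 and 15, 100.9 and 101.1 CPM in KO libraries 1 and 3, and 35.1 and 48.5 CPM in wt clones 12 and 16. Again the groups were ordered KO, E518K, wt with no overlap. KO was higher than wt by 1.27 ± 0.14 on the log2 scale (edgeR adjusted p = 3.38e-04), and E518K differed from KO by -0.86 ± 0.14 (edgeR adjusted p = 0.00263). E518K and wt differed by 0.41 ± 0.14, which was not called (edgeR adjusted p = 0.0692). DESeq2 called it (adjusted p = 0.0194). In edgeR the log2 fold change was 0.20 without wt clone 12 and 0.66 without wt clone 16, in fits that hold no spread between wt clones.

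Tnrc6c, the remaining GW182 gene, had a smaller difference. It had 94.6 and 94.1 CPM in E518K clones 8 and 15, 116.8 and 123.6 CPM in KO libraries 1 and 3, and 99.1 and 97.9 CPM in wt clones 12 and 16. Here E518K was lowest, below both wt clones. KO was higher than wt by 0.29 ± 0.06 (edgeR adjusted p = 0.00597), and the call was lost without KO library 3 (adjusted p = 0.0901) and with the KO libraries summed (adjusted p = 0.057). E518K differed from KO by -0.35 ± 0.06 (edgeR adjusted p = 0.00389), lost without KO library 3 (adjusted p = 0.0685), and from wt by -0.06 ± 0.06 (edgeR adjusted p = 0.492).

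Among the Argonautes, Ago1, which binds miRNAs and silences through GW182 but does not act as the main slicer, had 152.8 and 147.0 CPM in E518K clones 8 and 15, 264.9 and 253.8 CPM in KO libraries 1 and 3, and 112.7 and 131.6 CPM in wt clones 12 and 16. The groups did not overlap, in the order KO, E518K, wt. KO was higher than wt by 1.09 ± 0.08 (edgeR adjusted p = 9.44e-05), a ratio of mean CPM of 2.12. E518K differed from KO by -0.79 ± 0.08 (edgeR adjusted p = 6.05e-04). The difference between E518K and wt, 0.30 ± 0.08, was just past the threshold (edgeR adjusted p = 0.042). That call was lost under 10 of 16 alternatives, among them leaving out either E518K clone or either KO library. Over the 16 its adjusted p ran between 8.68e-04 and 0.275, and without wt clone 12 the log2 fold change was 0.19.

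Ago2, the slicing Argonaute, had the highest CPM of the 7 genes and moved little. It had 287.4 and 284.0 CPM in E518K clones 8 and 15, 329.2 and 331.8 CPM in KO libraries 1 and 3, and 290.0 and 325.8 CPM in wt clones 12 and 16. wt clone 16 lay just below the KO libraries, and wt clone 12 just above the E518K clones. KO differed from wt by 0.10 ± 0.07 (edgeR adjusted p = 0.239) and E518K from wt by -0.11 ± 0.07 (edgeR adjusted p = 0.29). Without wt clone 16 the log2 fold change between KO and wt was 0.19, and without wt clone 12 that between E518K and wt was -0.19. These fits hold no spread between wt clones. E518K differed from KO by -0.21 ± 0.07 (edgeR adjusted p = 0.0447), a call lost under 10 of 15 alternatives with adjusted p between 0.00224 and 0.215.

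The 3′ end of Ago2 shares 1711 bases with Chrac1, a gene on the opposite strand. As the use of strand in counting was not stated, it is not known to which gene reads there were counted. Chrac1 had 6201 to 6982 counts per library, equal to 25.2 to 32.8% of the Ago2 count. This is the whole Chrac1 count, not the reads in the shared bases. Chrac1 differed between KO and wt by -0.06 ± 0.08 (edgeR adjusted p = 0.579).

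Ago3, an Argonaute expressed at a lower level, had 14.5 and 17.8 CPM in E518K clones 8 and 15, 26.0 and 25.6 CPM in KO libraries 1 and 3, and 14.0 and 17.0 CPM in wt clones 12 and 16. KO lay above all other libraries, while the E518K and wt clones were interleaved. KO was higher than wt by 0.73 ± 0.14 (edgeR adjusted p = 0.00349), or by 0.45 on the log2(TPM + 1) scale, where the pseudocount is close to the level of the gene. E518K differed from KO by -0.68 ± 0.14 (edgeR adjusted p = 0.00742) and from wt by 0.06 ± 0.14 (edgeR adjusted p = 0.789). The call between E518K and KO was lost without KO library 1 (adjusted p = 0.0564), KO library 3 (adjusted p = 0.051) or E518K clone 8 (adjusted p = 0.0573), and with the KO libraries summed (adjusted p = 0.0534).

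Ago4 was close to the detection limit, with 42 and 48 counts in E518K clones 8 and 15, 103 and 72 counts in KO libraries 1 and 3, and 71 and 84 counts in wt clones 12 and 16. This is 0.583 and 0.658 CPM in E518K, 1.33 and 0.933 CPM in KO, and 0.979 and 1.14 CPM in wt. E518K was lowest, and the KO and wt ranges overlapped. None of its differences was called. KO differed from wt by 0.10 ± 0.30 (edgeR adjusted p = 0.795), E518K from wt by -0.77 ± 0.31 (edgeR adjusted p = 0.116) and E518K from KO by -0.87 ± 0.31 (edgeR adjusted p = 0.0596). The last was called under 4 of 16 alternatives, with adjusted p of 0.0262 to 0.0403 in those 4.

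**Figure D2:**
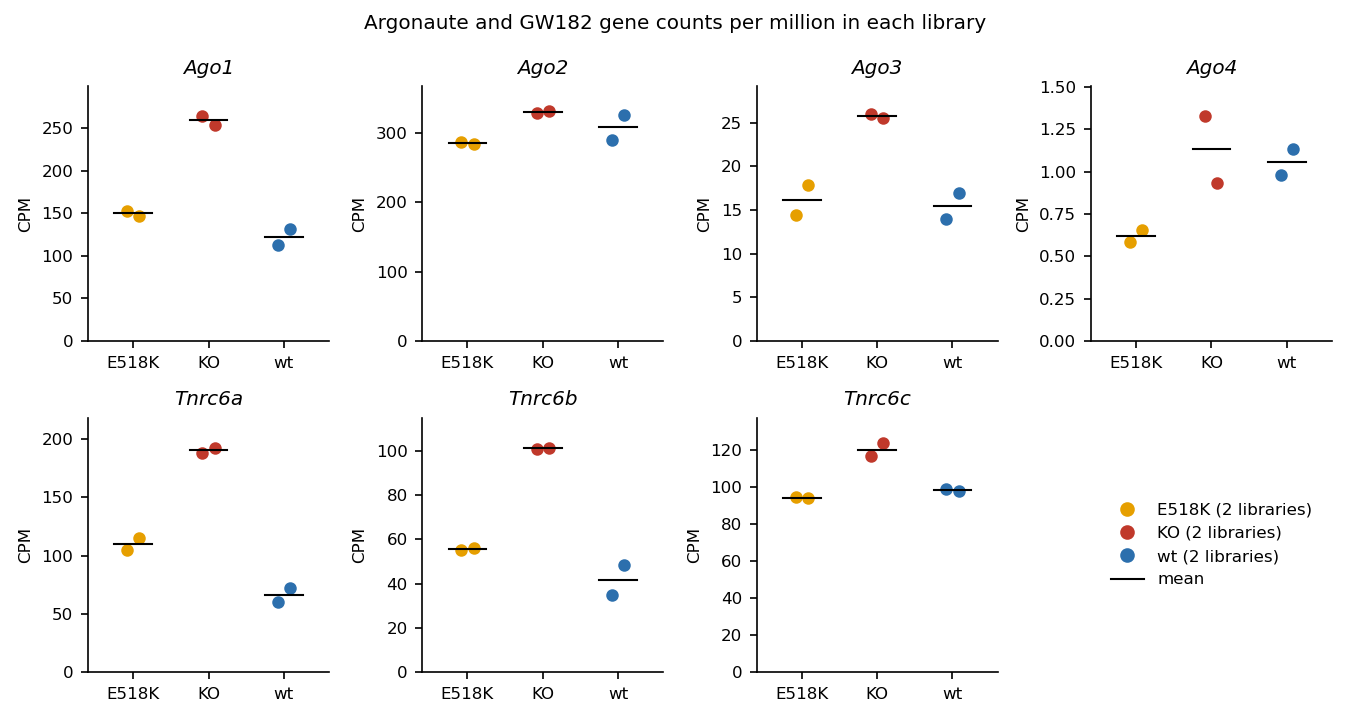
Normalised counts (CPM) of each gene in each library, with a panel per gene and its own axis; points are libraries (E518K clones 8 and 15, KO libraries 1 and 3, wt clones 12 and 16) and bars mark the mean of each group. The KO libraries lie above all others for every gene but Ago4, with the narrowest margin in Ago2, at 329.2 and 331.8 CPM in KO against 325.8 CPM in wt clone 16.

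E518K cells lay between KO and wt for some of these genes and at or below wt for others. Against wt, 2 of the 7 were called higher in E518K (Ago1 and Tnrc6a), none lower, and 5 were not called, with 11.3% of all tested genes called higher and 23.7% called in either direction. Both E518K clones lay above both wt clones in 3 genes and below both in 3, as 30.2% and 31.8% of tested genes did. The median log2 fold change over the 7 was 0.06. Against KO, 6 of the 7 were called lower in E518K, none higher, and only Ago4 was not called, with 19.8% of all tested genes called lower, 22.0% higher and 41.8% in either direction. All 7 had both E518K clones below both KO libraries, as 41.1% of tested genes did, while 39.4% lay the other way, and the median log2 fold change was -0.79. These comparisons share the same libraries, so the values for E518K against KO and for KO against wt are not independent.

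For the 5 genes called between KO and wt, the place of E518K can be given as a percent of the log2 distance, with wt at 0 and KO at 100. Tnrc6a stood at 47.9%, Tnrc6b at 32.3% and Ago1 at 27.2%, with a combined SD of the E518K and wt clones of 13.6, 26.0 and 15.0 points of that distance. Ago3 stood at 7.88%, with a combined SD of 39.3 points, and Tnrc6c at -21.7% (4.53 points), on the side of wt away from KO. For Tnrc6c, E518K and wt differed by only -0.06 ± 0.06, which was not called (edgeR adjusted p = 0.492). The combined SD leaves out the spread of the KO libraries. The places of Tnrc6a, Ago1 and Ago3 lie within the spread of Tnrc6b around its place, and those of Tnrc6b, Ago1 and Tnrc6c within that of Ago3. Single clones moved them: Ago3 stood at -12.6% without E518K clone 15, -12.1% without wt clone 12, 23.0% without wt clone 16 and 27.4% without E518K clone 8. Tnrc6b stood at 18.6% without wt clone 12 and 43.5% without wt clone 16.

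**Figure D3:**
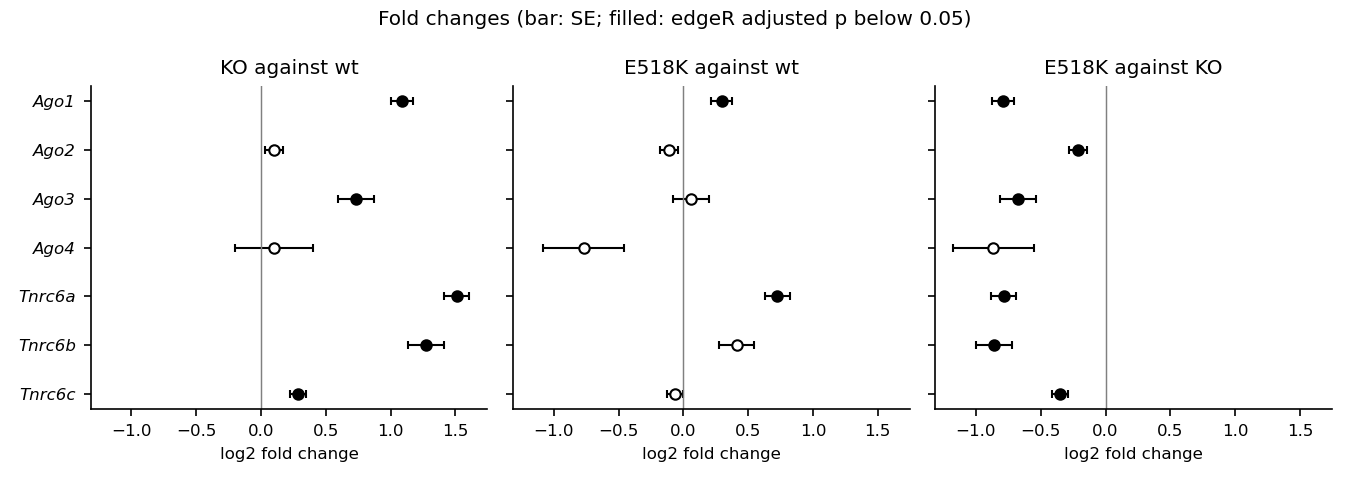
Log2 fold change of each gene in KO against wt, E518K against wt and E518K against KO, from edgeR, with bars of 1 SE and filled symbols for an adjusted p below 0.05. Tnrc6a, Tnrc6b and Ago1 have the largest differences between KO and wt (1.51, 1.27 and 1.09), and all 7 values of E518K against KO are below 0.

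The number of the 7 genes called depended on the libraries. Between KO and wt it was 4 without KO library 3 or with the KO libraries summed, and 6 without wt clone 16. Between E518K and wt it was 0 without E518K clone 15, while without wt clone 12 it was 3 higher and 1 lower. Between E518K and KO it was 3 without KO library 3 and 7 without wt clone 12 or without wt clone 16. The differences of Ago1, Ago3, Tnrc6a and Tnrc6b between KO and wt, and those of Ago1, Tnrc6a and Tnrc6b between E518K and KO, kept their call under all 16 alternatives. A fit without a wt clone leaves the spread between wt clones, the widest of any group, out of the pooled spread. For E518K against KO the log2 fold changes stayed nearly as they were in such fits. That of Ago2 stayed at -0.21, while its SE went from 0.069 to 0.041.

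Summed over the family, Argonaute mRNA came to 49.5 and 50.2 TPM in E518K, 81.1 and 79.5 TPM in KO, and 43.2 and 53.6 TPM in wt. GW182 mRNA came to 16.1 and 17.5 TPM in E518K, 28.3 and 29.3 TPM in KO, and 12.2 and 14.7 TPM in wt. Both sums were highest in KO without overlap. The ratio of the Argonaute sum to the GW182 sum was 3.08 and 2.86 in E518K, 2.87 and 2.72 in KO, and 3.55 and 3.66 in wt, so the wt clones stood above all others. With 2 libraries against 2, the smallest p of a two-sided exact permutation test of such a sum is 0.333, and none was made.

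The makeup of the Argonaute pool differed between the groups. Ago1 was 56.9 ± 0.66% of Argonaute TPM in E518K, 65.9 ± 0.74% in KO and 50.0 ± 0.62% in wt (SD, n = 2 each). Ago2 was 40.8 ± 0.29% in E518K, 31.7 ± 0.77% in KO and 47.5 ± 0.70% in wt (SD, n = 2 each). Ago3 and Ago4 made up the small remainder in each library. In the GW182 pool, Tnrc6a was 58.2 ± 1.55% in E518K, 63.3 ± 0.36% in KO and 46.2 ± 2.40% in wt (SD, n = 2 each). Tnrc6c was 32.7 ± 1.29% in E518K, 26.2 ± 0.54% in KO and 44.9 ± 3.77% in wt (SD, n = 2 each). By CPM per exonic kilobase, Tnrc6a was 47.2% in E518K, 52.3% in KO and 35.7% in wt, and Tnrc6c 40.0% in E518K, 32.7% in KO and 52.4% in wt, so that Tnrc6c led in wt.

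**Figure D4:**
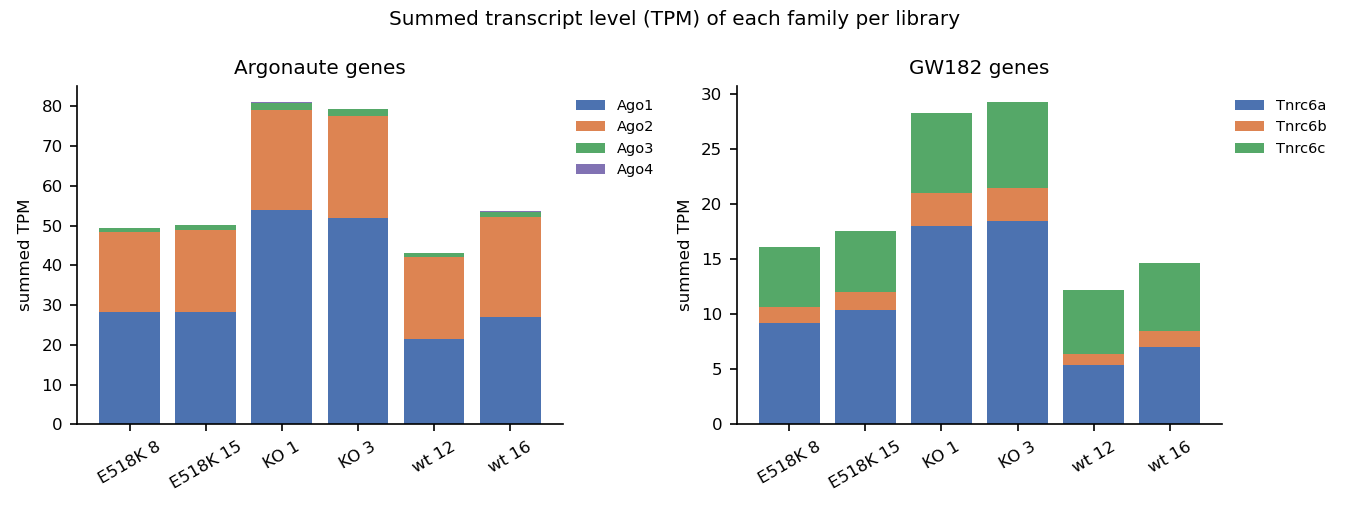
Stacked TPM of the 4 Argonaute genes and of the 3 GW182 genes in each library (bars, from 0), in the order E518K, KO, wt. The KO bars are the tallest in both families (81.1 and 79.5 TPM of Argonaute mRNA, 28.3 and 29.3 TPM of GW182 mRNA), with taller Ago1 and Tnrc6a segments.

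By deposited TPM, the levels ran Ago1, Ago2, then the GW182 genes, Ago3 and Ago4. Ago1 had 28.4 and 28.3 TPM in E518K, 53.8 and 51.9 in KO, and 21.4 and 27.0 in wt. Ago2 had 20.1 and 20.6 TPM in E518K, 25.2 and 25.6 in KO, and 20.8 and 25.2 in wt. Within wt clones 12 and 16, the ratio of Ago1 to Ago2 by TPM was 1.03 and 1.07, so Ago1 was slightly above Ago2 in both. The order of this pair rests on the length used. The mean Ago1 to Ago2 ratio was 1.39 in E518K, 2.08 in KO and 1.05 in wt by TPM, and 0.907 in E518K, 1.36 in KO and 0.685 in wt by CPM per exonic kilobase. Ago1 was thus first in all 6 libraries by span, and in the KO libraries alone by exonic length. Tnrc6c had 5.41 and 5.57 TPM in E518K, 7.30 and 7.78 in KO, and 5.79 and 6.18 in wt. It followed Tnrc6a except in wt clone 12 by TPM, and except in both wt clones by exonic length. Below them, Tnrc6b stood at 0.974 to 3.02 TPM, Ago3 at 0.914 to 1.81 and Ago4 at 0.0828 to 0.207 over the 6 libraries.

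Ago1, Ago3 and Ago4 lie side by side on the minus strand of chromosome 4 in GRCm38, with Ago3 at 126331704-126429556, Ago1 at 126435012-126468583 and Ago4 at 126489541-126533472, and 5455 and 20957 bases between them. Between KO and wt the middle gene differed by 1.09, Ago3 by 0.73 and Ago4 by 0.10 on the log2 scale. The genes outside the cluster were Clspn, next to Ago4 (-0.05 ± 0.08, edgeR adjusted p = 0.605), and Tekt2, next to Ago3 (-0.30 ± 0.34, edgeR adjusted p = 0.481). The other 4 genes lie apart, Ago2 at chromosome 15, 73095844-73184935, Tnrc6b at chromosome 15, 80711313-80941085, Tnrc6a at chromosome 7, 123123885-123195296, and Tnrc6c at chromosome 11, 117654289-117763439. Tmc6, 2548 bases from Tnrc6c and on the other strand, was higher in KO than in wt by 0.65 ± 0.09 (edgeR adjusted p = 0.00107), and its part in the Tnrc6c counts was not tested. Slc5a11, 19483 bases from Tnrc6a and on the same strand, was higher than in wt in KO, by 0.65 ± 0.11 (edgeR adjusted p = 0.00238), and in E518K, by 0.39 ± 0.11 (edgeR adjusted p = 0.047). Beside Ago2, Ptk2 was higher in KO than in wt by 0.26 ± 0.07 (edgeR adjusted p = 0.0135) and Trappc9 fell by 0.53 on the log2 scale (edgeR adjusted p = 0.0028). Fam83f, beside Tnrc6b, fell by 1.64 (edgeR adjusted p = 0.0161), while Adsl, on its other side, Rbbp6 beside Tnrc6a and Sept9 beside Tnrc6c were not called between KO and wt.

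Counts of the pathway lists below stand beside these shares of all tested genes: 27.4% were called higher and 29.7% lower in KO than in wt, 11.3% higher and 12.5% lower in E518K than in wt, and 22.0% higher and 19.8% lower in E518K than in KO. Downstream of GW182, the deadenylase genes were called in both directions. Of 16 tested, 4 were called higher and 3 lower (18.8%) in KO than in wt, with a median of -0.03, and neither share exceeds that over all genes. Cnot6l and Cnot6, which encode alternative catalytic subunits of CCR4-NOT, were higher by 1.15 ± 0.09 and 0.81 ± 0.07, and Tob1, an adaptor that brings CCR4-NOT to mRNAs, by 0.40 ± 0.08. Cnot3, a structural subunit, fell by 0.58 on the log2 scale, Cnot10, another subunit, by 0.29 and Cnot8, a catalytic one, by 0.51. Cnot1, the scaffold that TNRC6 proteins contact, differed by -0.07 ± 0.08 (edgeR adjusted p = 0.503). Between E518K and wt, Cnot6 was higher by 0.53 ± 0.07 (edgeR adjusted p = 0.00319), while Cnot6l differed by 0.03 ± 0.09 (edgeR adjusted p = 0.819). In all, 1 of the 16 was called higher and 2 lower in E518K than in wt, and 2 higher and 6 lower in E518K than in KO.

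Decapping and decay genes held more lower than higher calls in KO. Of 20 tested, 2 were called higher and 12 lower than in wt, which is 10.0% and 60.0%, with a median of -0.27. Lsm5, Lsm2 and Lsm4, subunits of the LSM ring that binds shortened tails, had log2 fold changes of -1.05 ± 0.08, -0.72 ± 0.08 and -0.66 ± 0.09. The 2 higher were Xrn1, the 5′ to 3′ exonuclease, at 0.39 ± 0.08, and Dcp2, the decapping enzyme, at 0.51 ± 0.12. Ddx6, the helicase that links CCR4-NOT to decapping, differed by -0.10 ± 0.10 (edgeR adjusted p = 0.421). In E518K, 3 were called higher and 1 lower than in wt, and 11 higher and 2 lower than in KO.

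Among 12 genes of poly(A) binding and the cap, 2 were called higher and 2 lower in KO than in wt, 16.7% each. Pabpc4 and Pabpc1, poly(A)-binding proteins that contact GW182 proteins, had log2 fold changes of -1.72 ± 0.07 and -0.97 ± 0.07. In E518K the same pair differed from wt by -0.47 ± 0.06 (edgeR adjusted p = 0.00403) and -0.35 ± 0.07 (edgeR adjusted p = 0.0114). Gigyf1, which works with the cap-binding protein 4EHP, was higher in KO by 0.92 ± 0.09. In E518K, 4 were called higher and 2 lower than in wt, and 6 higher and 2 lower than in KO.

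Of 14 genes for Argonaute loading and its chaperones, 2 were called higher (14.3%) and 7 lower (50.0%) in KO than in wt, with a median of -0.17. Hsp90aa1, an HSP90 chaperone of the kind that holds Argonaute open for loading, was higher by 1.22 ± 0.06, and its paralogue Hsp90ab1 differed by -0.14 ± 0.06 (edgeR adjusted p = 0.0613). Fkbp5, an HSP90 co-chaperone, had a log2 fold change of -0.94 ± 0.07. In E518K, 4 were called higher and none lower than in wt, and 9 higher (64.3%) and 1 lower (7.14%) than in KO.

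Of 23 Argonaute partners and regulators, 7 were called higher (30.4%) and 10 lower (43.5%) in KO than in wt. The 3 with the largest increase were Ankrd52 at 1.38 ± 0.08 and Ppp6c at 1.18 ± 0.06, a regulatory and a catalytic subunit of the phosphatase that removes phosphate from AGO2 after target binding, and Mov10, a helicase found with Argonaute, at 1.02 ± 0.06. All 3 were also called higher in E518K than in wt, by 0.26 ± 0.08 (edgeR adjusted p = 0.0498), 0.45 ± 0.06 (edgeR adjusted p = 0.00427) and 0.55 ± 0.06 (edgeR adjusted p = 0.00239). Larp7, an RNA-binding protein of the list, was higher in E518K than in wt by 0.48 ± 0.07 (edgeR adjusted p = 0.00536). The lower genes in KO with the smallest p were Fxr2, a paralogue of FMRP, at -0.68 ± 0.06, Elavl1, which encodes the AU-rich element binding protein HuR, at -0.40 ± 0.06, and Wtip, a LIM protein, at -0.63 ± 0.10. Csnk1a1, the kinase of the same phosphorylation cycle as the Ankrd52 and Ppp6c phosphatase, differed between KO and wt by -0.16 ± 0.06 (edgeR adjusted p = 0.0477). Zswim8, the adaptor of the ubiquitin ligase that acts on Argonaute in target-directed miRNA decay, was lower in KO, at -0.57 ± 0.10, and in E518K, at -0.65 ± 0.10, than in wt. In E518K, 5 of the 23 were called higher and 4 lower than in wt, and 6 higher and 7 lower than in KO.

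The germline relatives of the PIWI clade added little. Piwil2 was higher in KO than in wt by 0.55 ± 0.15 (edgeR adjusted p = 0.0156), Piwil1 was not called (edgeR adjusted p = 0.0707), and Piwil4 did not pass the filter. Over the 6 lists, 18 of 87 tested genes were called higher (20.7%) and 34 lower (39.1%) in KO than in wt, 17 higher (19.5%) and 9 lower (10.3%) in E518K than in wt, and 34 higher (39.1%) and 19 lower (21.8%) in E518K than in KO.

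**Figure D5:**
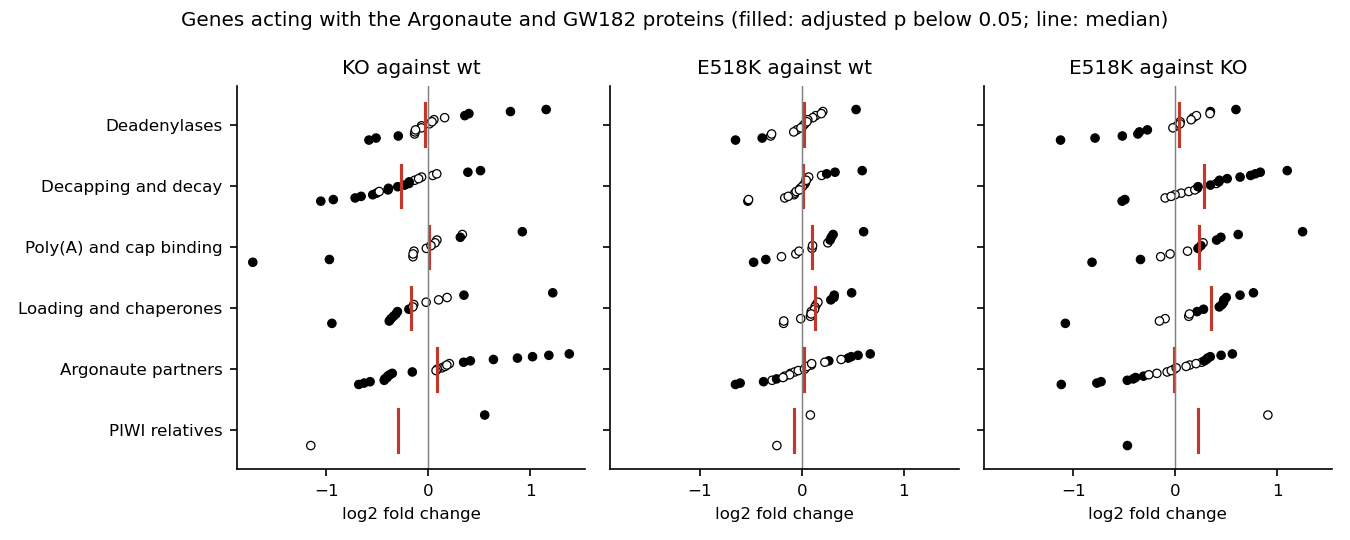
Log2 fold changes of the genes of the 6 pathway lists in KO against wt, E518K against wt and E518K against KO, 1 point per gene, filled where the edgeR adjusted p was below 0.05, with a red line at the median of each list. Between KO and wt the medians lie between -0.30 (2 PIWI genes) and 0.09 (Argonaute partners), where the 7 Argonaute and GW182 genes have a median of 0.73.

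The genes whose pattern was most like each of the 7 were taken as the 3 highest Pearson correlations of log2 CPM over the 6 libraries, over genes whose mean log2 CPM reached 1, predicted gene models left out. For Tnrc6b these were Arhgef33 (r = 0.9998), Il17rd (0.9993) and Elavl2 (0.9992), for Tnrc6a Arhgef3 (0.9996), Kdm3a (0.9989) and Adam17 (0.9988), and for Ago1 Myo3a (0.9991), Sipa1l3 (0.9985) and Tmem123 (0.9984). For Ago2 the highest was Tada1 (0.9909) and for Ago4 St6galnac3 (0.9829). The 6 points fall into 3 groups. Correlations above 0.95 were found for 997 of 12061 genes with Tnrc6a, 970 with Ago1, 936 with Tnrc6b, 635 with Ago3, 367 with Tnrc6c, 10 with Ago4, and 66 of 12060 with Ago2.

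The cells expressed embryonic stem cell markers. The 8 markers listed summed to 14198.2 to 14338.6 TPM in E518K, 11544.8 to 11788.8 TPM in KO and 14248.5 to 16577.3 TPM in wt. Dppa5a alone made up most of each sum, at 9617.2 and 9704.6 TPM in E518K, 7459.9 and 7295.5 in KO, and 11505.5 and 9420.3 in wt. Of the 8, 6 were called lower and 1 higher in KO than in wt. Summed markers of other cells stood below the embryonic stem cell sums in all 6 libraries. They came to 0.341 to 0.760 TPM for primitive endoderm, 1.64 to 3.18 for fibroblasts and 8.58 to 15.0 for primed cells. Trophectoderm markers summed to 37.0 to 46.7 TPM. Among them, Eomes at 11.8 to 24.9 and Tfap2c at 10.7 to 31.2 TPM overlapped the levels of Ago1 and Ago2. Of 4 trophectoderm markers tested, 1 was called lower in KO than in wt, and 1 higher and 2 lower in E518K than in wt. Of 5 primed markers, 1 was called higher and 1 lower in each of these comparisons. Elf5 and Twist2 were each at 0 in 4 libraries. In bulk RNA, fewer cells of a type and less RNA per cell cannot be told apart, and the part of these markers in the differences above was not tested.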

How the data were processed

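The data are 6 libraries of poly(A)-selected RNA from mouse embryonic stem cells, sequenced as paired-end reads. Per the submitters' processing notes, STAR, bedtools and the GRCm38.p6 build were used. The authors deposited a table of raw read counts per gene, with 73642784 to 75121971 counts per library, and a TPM table. The ratio of the 2 tables gave, for 98.5% of 12498 genes with at least 100 counts in a library, a length within 5% of the genomic span in GENCODE M21, so TPM was made with that length. Whether the deposited counts include reads in introns was not tested. Of 19553 matched genes, 3429 overlap another gene, and their reads are uncertain.

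Counts were filtered (filterByExpr, minimum count 10), scaled by TMM and fitted with edgeR 4.0.16 in R 4.3.3, by a robust quasi-likelihood test over all 6 libraries with the group as the factor. Each SE is the log2 fold change divided by the square root of F. The fit was tested on simulated data with the same spread set for every gene and group. That test cannot cover the unequal spreads of the KO, E518K and wt libraries. Alternatives used DESeq2 1.42.0, limma 3.58.1 on log2(TPM + 1) or log2(TPM + 0.1), other scalings and subsets of the libraries. The 7 genes, the pathway and marker lists and the tests were chosen with earlier results of these data known. For each list and comparison, up to 3 called genes in each direction with the smallest p were picked for naming. The text gives values for some of these, and for Cnot1, Ddx6, Hsp90ab1, Csnk1a1 and Ankrd52 in E518K, chosen after their values were seen, as were the values of Zswim8 in KO. No column of sample values went unused (0). Protein sequences were not used here.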

Additional observations from a re-analysis of the deposited data

How the results depend on the processing

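No paired analysis was possible because the groups share no replicate numbers. Of 207 recalculations of the 13 called fold changes of the 7 genes, 178 kept direction and call, 29 lost the call and 0 changed direction. Of 126 for the 8 values not called, 9 became called and 7 changed direction. For Ago3 in E518K against wt these were -0.00377 in limma on log2(TPM + 1) with or without the filter, -0.00593 on log2(TPM + 0.1), and -0.091 to 0.20 with 1 library left out (below 0 without E518K clone 15 and, at -0.07, without wt clone 12). For Ago4 in KO against wt they were -0.18 without KO library 1 and -0.00412 without wt clone 12, in a range up to 0.33. A lone remaining library was assumed to vary like the other groups. Genes called in all were 9429 between KO and wt, 6171 with the KO libraries summed and 6101 to 10960 with 1 library left out. Between E518K and wt they were 3917, against 1866 with the KO libraries summed, 1982 with only these 2 groups, 2313 in limma on unfiltered log2(TPM + 1) and 652 to 7014 with 1 library left out. Between E518K and KO they were 6902, against 3245 with the KO libraries summed and 3250 to 9503 with 1 library left out. The split between E518K and wt was 1862 higher and 2055 lower, against 1472 and 2455 with upper-quartile scaling and 883 and 2292 in limma on filtered log2(TPM + 1). Per exonic kilobase, the log2 ratio of E518K to KO was -0.52 for the Argonaute sum and -0.64 for the GW182 sum, and on log2(TPM + 1) the place of E518K for Tnrc6c was -36.8%. The cause of these differences was not tested. The counts of Ago4, 42 to 103 per library, limit what can be said of it.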
